A study of Mus musculus with 9 samples.

Results

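The genes of the mitochondrial ribosomal proteins were followed in mouse hearts of 3 ages. They were chosen by name, as every gene with a symbol of Mrpl or Mrps and a number among array features that carry a single gene symbol. This gave 77 genes, 48 Mrpl and 29 Mrps, of 19938 genes tested. Total RNA of heart, labelled as cardiac muscle, came from C57BL/6 mice, an inbred strain, aged 24 hours, 7 days or 10 weeks after birth. No treatment or mutation is named for any age, so that the ages differ in the labels by time alone. Each age is represented by 3 Affymetrix Mouse Gene 1.0 ST arrays, 9 in all, which read a gene through many short probes. The series asks which transcripts of the heart change as a newborn mouse becomes a young adult.

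Mitochondria make a few core subunits of the respiratory chain inside the organelle, from their own DNA, and do so on a ribosome of their own. All protein parts of that ribosome are encoded in the nucleus, made in the cytosol and imported, then assembled with ribosomal RNA of the mitochondrion into a small subunit, which reads the messenger, and a large subunit, which joins the amino acids. The family grew from a bacterial set of proteins to which animals added many more. The heart depends on respiration for its work, and in humans inherited defects of several of these proteins are known to cause cardiomyopathy in infancy.

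Nothing in the sample labels tells whether arrays of one age were hybridised with RNA of different mice. P-values therefore measure the spread between these samples, which may be technical. A cardiomyocyte list of 8 genes averaged 12.53 to 12.60 on the log2 scale on all 9 arrays, but its genes did not stay level. On the 10-week arrays Mb, Tnni3 and Atp2a2 lay above their 24-hour values, Myh6, Tnnt2, Actc1 and Ryr2 below, and Myl2 overlapped. A brown fat list of 7 genes averaged 5.6 to 5.66 on the 24-hour arrays, 5.73, 8.46 and 6.92 on 7-day replicates 1, 2 and 3, and 5.71 to 6.01 on the 10-week arrays. An atrial list of 5 genes averaged 9.48 to 10.11, 10.14 to 10.56 and 6.58 to 8.20 at 24 hours, 7 days and 10 weeks. Macrophage markers (6 genes) averaged 6.64 to 6.78, 7.34 to 7.43 and 8.19 to 8.43, and proliferation markers (5 genes) 8.58 to 8.97, 8.52 to 8.61 and 5.0 to 5.53, over the same ages. Fibroblast markers (7 genes) averaged 9.25 to 9.48, 9.98 to 10.26 and 8.76 to 8.96, but did not move together. On the 10-week arrays Dcn, Lum and Dpt lay above their 24-hour values, Col1a1, Col3a1 and Tcf21 below, and Pdgfra overlapped. Alas2, the 1 erythroid marker tested of 4 listed, measured 7.51 to 8.39, 8.54 to 9.07 and 4.25 to 7.12 over the 3 ages. Scgb1a1, an airway gene, measured 5.83 on 24-hour replicate 1 and 6.83 on 7-day replicate 2, against 2.49 to 2.76 on the other 7 arrays, and Alb, a liver gene, was highest at 7.81 on 7-day replicate 2. The part of these shifts in the results below was not tested, and in such whole-tissue RNA fewer cells of a type and less RNA per cell cannot be told apart.

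Most calls among the mitochondrial ribosomal proteins came from the adult hearts. In 10-week against 24-hour hearts, 34 of the 77 genes were higher and 3 were lower, led by Mrpl14 at 1.93-fold and Mrpl30 at 1.77-fold. In 10-week against 7-day hearts 32 were higher and 3 lower, and in 7-day against 24-hour hearts 2 were higher and 1 lower. A gene is called higher or lower here where limma, fitted to all 9 arrays, gave a Benjamini-Hochberg adjusted p under 0.05 over all genes tested. Over all genes tested 40.1% were called for 10-week against 24-hour hearts, 19.5% higher and 20.6% lower. For 10-week against 7-day hearts 35.9% were called, 17% higher and 18.9% lower, and for 7-day against 24-hour hearts 10.1%, 5.27% higher and 4.81% lower. The ribosomal protein genes were thus called higher at 44.2% and 41.6% in the adult comparisons and lower at 3.90% in each, while in the first week their 2.60% and 1.30% lay below the shares over all genes. The adult comparisons share the 10-week arrays, and the count of genes called in both is a description.

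The median log2 difference of the 77 genes was 0.190 for 10-week minus 24-hour, 0.195 for 10-week minus 7-day and 0.035 for 7-day minus 24-hour, where the medians over all genes were 0.038, 0.039 and -0.002. Of the 77 genes 61 had a positive difference in 10-week against 24-hour hearts, and 60 in 10-week against 7-day hearts. These are 79.2% and 77.9% of the genes, where 58.2% and 58.9% of all genes tested had a positive difference. All 3 arrays lay above all 3 of the younger age for 33 genes against 24 hours and for 34 against 7 days, and below for 4 in each case. Over all genes 24.6% and 22.8% lay above in this way, and 23.6% and 21.5% below. A rise of at least 1.5-fold between 24 hours and 10 weeks was reached by 5 genes, Mrpl14, Mrpl30, Mrpl42, Mrps18a and Mrps14. The signals themselves were well above the middle of the array: 76 of the 77 genes had a mean above the median gene at each age, the exception being Mrpl22. Its values of 4.64, 4.55 and 4.80 at 24 hours, 4.51, 4.73 and 4.64 at 7 days and 4.64, 5.30 and 4.62 at 10 weeks are dim, so that a difference in it can be understated.

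**Figure D1:**
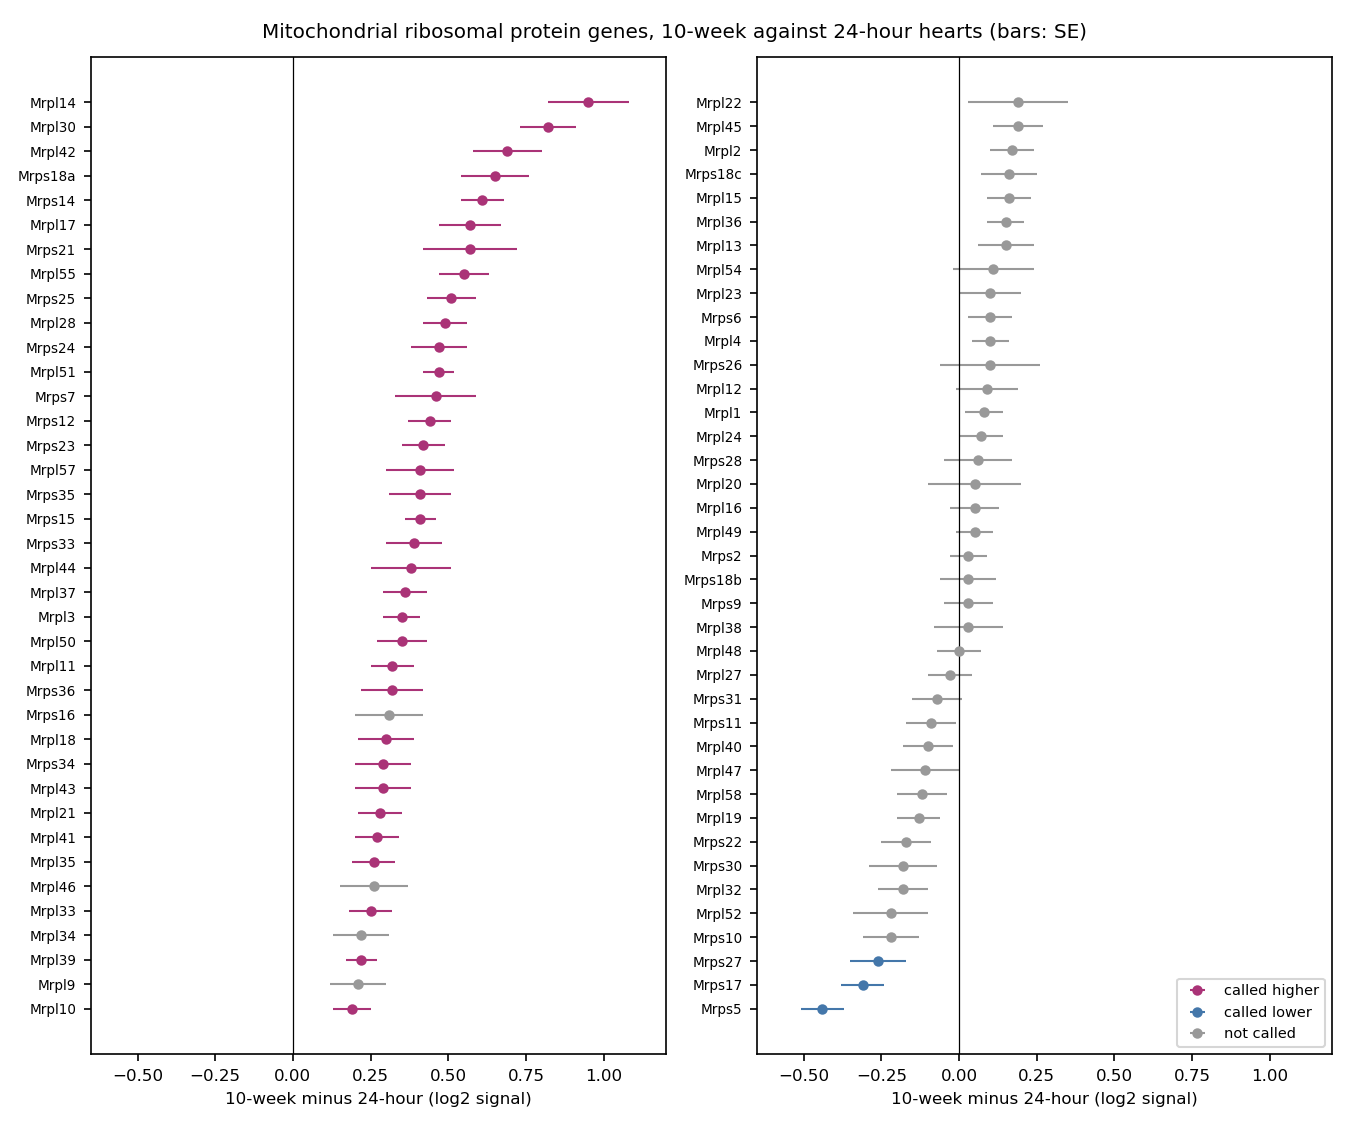
Difference of each of the 77 mitochondrial ribosomal protein genes between 10-week and 24-hour hearts, as 10-week minus 24-hour log2 signal (points) with its standard error (bars), ordered from the largest in the left panel to the smallest in the right one. The 34 genes called higher lie to the right of 0, from Mrpl14 at 0.95 to Mrpl10 at 0.19, and the 3 called lower are Mrps5, Mrps17 and Mrps27.

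All calls in the large subunit were higher in the older hearts. Of its 50 genes, which are the Mrpl genes together with Mrps18a and Mrps30, 22 were higher and 0 lower in 10-week against 24-hour hearts by limma, and 20 were higher and 0 lower in 10-week against 7-day hearts. At an unadjusted p under 0.05 limma gave 29 higher and 1 lower against 24 hours, and 24 higher and 2 lower against 7 days. At that threshold 24.4% of all genes tested were higher and 23% lower against 24 hours, and 22.7% and 21.8% against 7 days. Mrpl52 fell just short of a call at -0.34 ± 0.12 in 10-week against 7-day hearts, without overlap (SE, limma, adjusted p = 0.0514). So did Mrps30 at -0.39 ± 0.11 in 7-day against 24-hour hearts (SE, limma, adjusted p = 0.0511), and it was called lower with the replicate number as a block. Mrpl14, a counterpart of bacterial L14 on the face of the large subunit that meets the small one, measured 6.38, 6.27 and 6.6 in 24-hour hearts, 6.80, 6.49 and 6.78 in 7-day hearts, and 7.42, 7.56 and 7.13 in 10-week hearts. Every 10-week value lay above every younger one. The 10-week minus 24-hour difference was 0.95 ± 0.13 (SE, limma, adjusted p = 0.000153), and the 10-week minus 7-day difference 0.68 ± 0.13 (adjusted p = 0.00175). MALSU1, an assembly factor known to bind this protein in the maturing large subunit, is encoded by Malsu1, which was higher by 0.24 ± 0.06 in 10-week against 24-hour hearts (SE, limma, adjusted p = 0.00637) and was named here for that link, after its values were seen.

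Mrpl30, a counterpart of bacterial L30, measured 9.08, 9.18 and 9.24 at 24 hours, 9.51, 9.23 and 9.42 at 7 days, and 10.08, 10.06 and 9.82 at 10 weeks. The 10-week hearts stood apart from both younger ages, which overlapped at a single 7-day value. The difference to 24 hours was 0.82 ± 0.09 and to 7 days 0.60 ± 0.09 (SE, limma, adjusted p = 2.72e-05 and 0.000323). Mrpl42, which has no bacterial counterpart, measured 8.16, 8.46 and 8.65 at 24 hours, 8.65, 8.54 and 8.65 at 7 days, and 9.08, 9.27 and 8.99 at 10 weeks. Its 24-hour values spread over more than its 7-day values, and both lay below the 10-week hearts. Mrpl42 was higher by 0.69 ± 0.11 against 24 hours and by 0.50 ± 0.11 against 7 days (SE, limma, adjusted p = 0.000627 and 0.00566).

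Mrpl28 and Mrpl55 were called after the first week only, against both younger ages. Mrpl28, a counterpart of bacterial L28, measured 6.57, 6.53 and 6.61 at 24 hours, 6.55, 6.49 and 6.5 at 7 days, and 7.14, 7.13 and 6.92 at 10 weeks. Its 10-week minus 7-day difference was 0.55 ± 0.07 (SE, limma, adjusted p = 0.000129), while 7-day minus 24-hour was -0.06 ± 0.07 (adjusted p = 0.759). Mrpl55, the mitochondrial form of bacterial L31, measured 8.18, 8.23 and 8.32 at 24 hours, 8.37, 8.17 and 8.29 at 7 days, and 8.87, 8.85 and 8.66 at 10 weeks, and was higher by 0.52 ± 0.08 in 10-week against 7-day hearts (SE, limma, adjusted p = 0.000309). Both genes had their lowest 10-week value on replicate 3, which still lay above every younger array.

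Mrpl51 and Mrpl17 were already somewhat above their 24-hour values at 7 days, which was not particular to them. Their 7-day minus 24-hour differences were matched by 0.27 in Mrpl14, 0.22 in Mrpl30, and 0.26 in both Mrps14 and Mrps21. Of these other genes only Mrps14 was called over that week. Mrpl51, an addition of the mitochondrial ribosome, measured 9.12, 9.19 and 9.25 at 24 hours, 9.43, 9.34 and 9.45 at 7 days, and 9.71, 9.63 and 9.63 at 10 weeks, so that no age overlapped another. Its difference was 0.22 ± 0.05 over the first week and 0.25 ± 0.05 from 7 days to 10 weeks (SE, limma, adjusted p = 0.0283 and 0.00468). The first of these calls was lost without 24-hour replicate 1 or 2 or 7-day replicate 1 or 3, with differences of 0.19 to 0.22 and adjusted p = 0.0886 to 0.117. It was also lost with the replicate number as a block (0.22, adjusted p = 0.052), with a second array feature of Mrpl51 in place of the first (0.21, adjusted p = 0.376) and with the mean of both (0.22, adjusted p = 0.135). Mrpl17, a counterpart of bacterial L17, measured 5.98, 6.08 and 6.01 at 24 hours, 6.21, 6.31 and 6.30 at 7 days, and 6.74, 6.70 and 6.35 at 10 weeks. It was higher by 0.57 ± 0.10 in 10-week against 24-hour hearts (SE, limma, adjusted p = 0.000729), and its 7-day minus 24-hour difference of 0.25 ± 0.10 did not pass (adjusted p = 0.161).

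The stalk of the large subunit, which draws in the translation factors, was named here after its values were seen. Mrpl11, at the base of the stalk, was higher by 0.32 ± 0.07 in 10-week against 24-hour hearts (SE, limma, adjusted p = 0.00496). Mrpl12, the stalk protein itself, measured 8.96, 9.10 and 9.14 at 24 hours, 9.20, 8.99 and 9.15 at 7 days, and 9.28, 9.25 and 8.95 at 10 weeks, and its 3 ages overlapped (10-week minus 24-hour 0.09 ± 0.10, SE, adjusted p = 0.486). Mrpl10, which anchors the stalk, was higher by 0.19 ± 0.06 (SE, limma, adjusted p = 0.0264), a call lost without 24-hour replicate 1 or 2 or 10-week replicate 2 (differences of 0.15 to 0.19, adjusted p = 0.0704 to 0.109).

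The small subunit held both directions. Of its 27 genes 12 were higher and 3 lower in 10-week against 24-hour hearts, and 12 higher and 3 lower in 10-week against 7-day hearts. These are 44.4% higher and 11.1% lower in each comparison. Over all genes tested the shares were 19.5% and 20.6% against 24 hours, and 17% and 18.9% against 7 days. These counts include Mrps36, which is now known as a part of the 2-oxoglutarate dehydrogenase complex and not of the ribosome. Without it 11 of 26 were higher and 3 lower against 24 hours, and 12 and 3 against 7 days. Mrps14, a counterpart of bacterial S14 in the head of the subunit, measured 6.70, 6.65 and 6.84 at 24 hours, 7.01, 6.92 and 7.03 at 7 days, and 7.39, 7.27 and 7.36 at 10 weeks, with no overlap between ages. It was higher by 0.61 ± 0.07 in 10-week against 24-hour hearts and by 0.36 ± 0.07 in 10-week against 7-day hearts (SE, limma, adjusted p = 3.25e-05 and 0.0018). Its rise of 0.26 ± 0.07 over the first week (SE, adjusted p = 0.0363) was lost without 24-hour replicate 1 or 2 or 7-day replicate 1 or 3 (differences of 0.22 to 0.25, adjusted p = 0.109 to 0.146) and on array-median centring (0.26, adjusted p = 0.0532). Mrps14 and Mrpl51 were the members called higher in both steps, which 2.03% of all genes were.

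Mrps15, a counterpart of bacterial S15, had closely grouped replicates. It measured 9.57, 9.57 and 9.68 at 24 hours, 9.65, 9.64 and 9.63 at 7 days, and 9.98, 9.96 and 10.11 at 10 weeks, and the 10-week hearts were higher by 0.38 ± 0.05 against 7 days (SE, limma, adjusted p = 0.000288). Mrps21, a counterpart of bacterial S21, was more scattered, at 9.13, 9.41 and 9.70 at 24 hours, 9.67, 9.65 and 9.72 at 7 days, and 10.28, 9.87 and 9.79 at 10 weeks. It was higher by 0.57 ± 0.15 in 10-week against 24-hour hearts (SE, limma, adjusted p = 0.0105). Mrps25, an added protein, measured 6.12, 6.25 and 6.37 at 24 hours, 6.33, 6.40 and 6.42 at 7 days, and 6.87, 6.75 and 6.66 at 10 weeks. Its 10-week values lay above all younger ones, by 0.51 ± 0.08 against 24 hours (SE, limma, adjusted p = 0.000411).

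The genes called lower in adult hearts were all of the small subunit. They made up 11.1% of its genes in each adult comparison, below the 20.6% of all genes tested against 24 hours and 18.9% against 7 days. Whether the subunits differ in this was not tested. Mrps5, a counterpart of bacterial S5 near the channel through which the messenger enters, measured 7.98, 8.12 and 8.08 at 24 hours, 7.93, 7.90 and 7.92 at 7 days, and 7.69, 7.71 and 7.46 at 10 weeks. No age overlapped another. The difference was -0.44 ± 0.07 in 10-week against 24-hour hearts and -0.29 ± 0.07 in 10-week against 7-day hearts (SE, limma, adjusted p = 0.000664 and 0.00902). A second array feature of Mrps5 gave -0.38 and -0.21, and with it in place of the first the 10-week against 7-day difference was not called.

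Mrps17, a counterpart of bacterial S17, measured 7.60, 7.73 and 7.78 at 24 hours, 7.60, 7.60 and 7.68 at 7 days, and 7.38, 7.47 and 7.32 at 10 weeks. Every adult value lay below the younger ones, by -0.31 ± 0.07 against 24 hours and -0.23 ± 0.07 against 7 days (SE, limma, adjusted p = 0.0031 and 0.0178). The call against 7 days was lost without 7-day replicate 3 (difference -0.21, adjusted p = 0.071) and with quantile normalization (-0.14, adjusted p = 0.124). Mrps22, an added protein, measured 7.62, 7.72 and 7.87 at 24 hours, 7.88, 7.72 and 7.89 at 7 days, and 7.58, 7.63 and 7.48 at 10 weeks, where the adult values overlap the 24-hour ones only. Its 10-week minus 7-day difference of -0.27 ± 0.08 (SE, limma, adjusted p = 0.0219) was lost without 7-day replicate 1 or 3 or 10-week replicate 3 (-0.25 to -0.23, adjusted p = 0.0668 to 0.0828). With quantile normalization it was -0.19 (adjusted p = 0.0998).

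**Figure D2:**
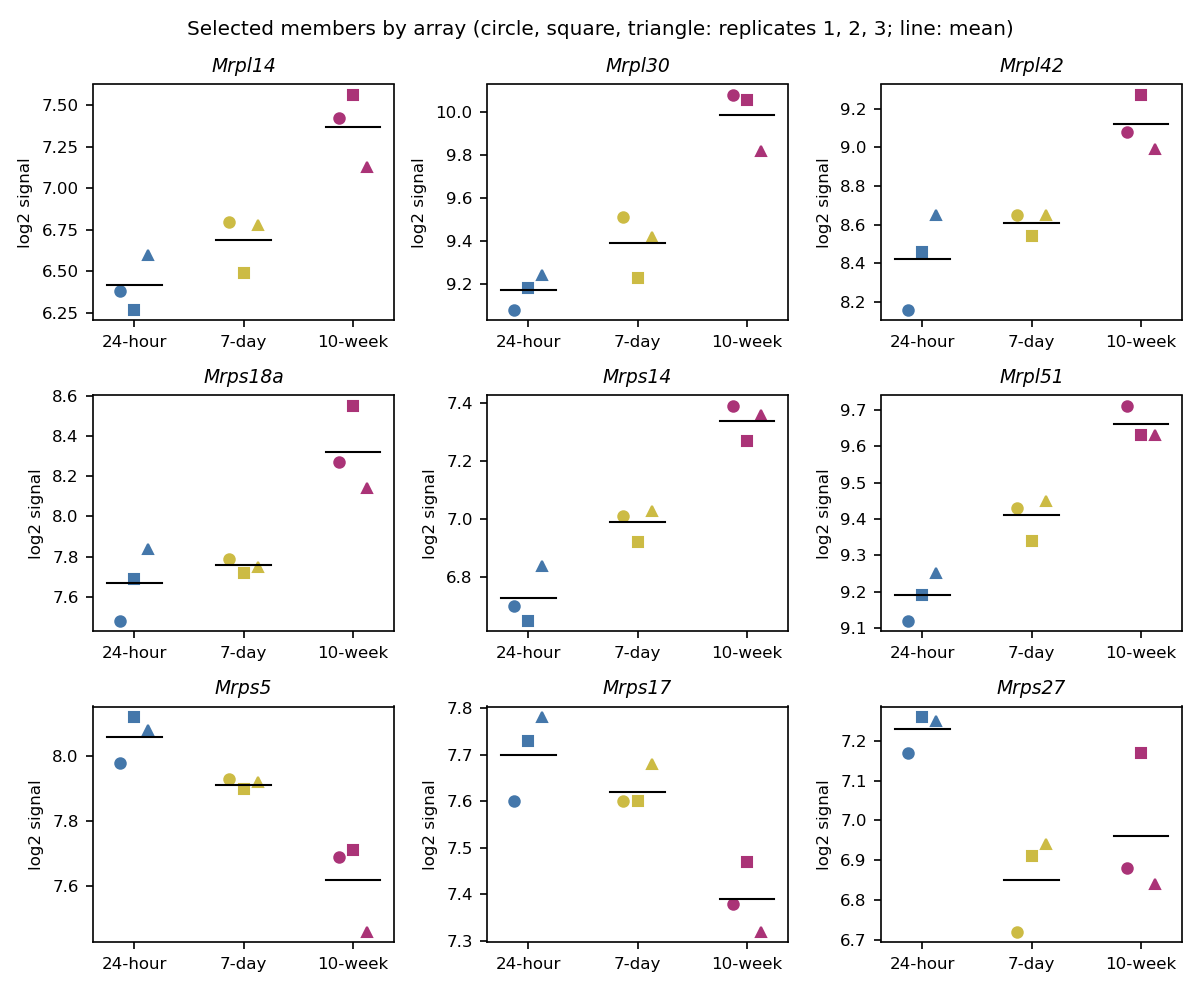
Log2 signal of 9 mitochondrial ribosomal protein genes on each array at 24 hours, 7 days and 10 weeks (circles, squares and triangles are replicates 1, 2 and 3, lines are the means, and each panel has its own axis that does not start at 0). The 10-week hearts lie above both younger ages for the genes in the upper and middle rows and below them for Mrps5 and Mrps17, while Mrps27 overlaps between 7 days and 10 weeks.

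The first postnatal week changed few of these genes. Beside Mrpl51 and Mrps14 it was Mrps27, a protein with RNA-binding repeats, that was called, at 7.17, 7.26 and 7.25 in 24-hour hearts, 6.72, 6.91 and 6.94 in 7-day hearts, and 6.88, 7.17 and 6.84 in 10-week hearts. Its 7-day minus 24-hour difference was -0.37 ± 0.09 (SE, limma, adjusted p = 0.0332), and it was lost without any 1 of the 6 arrays compared (-0.41 to -0.30, adjusted p = 0.0607 to 0.119). The 10-week minus 24-hour difference of -0.26 ± 0.09 (SE, limma, adjusted p = 0.0496) was lost without 7 of the 9 single arrays, all but 7-day replicate 1 and 10-week replicate 2 (-0.29 to -0.20, adjusted p = 0.0617 to 0.15). In all, 7.79% of the members were higher and 7.79% lower in the first week at an unadjusted p under 0.05 by limma, where 10.4% and 10.8% of all genes tested were.

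Mammals have several paralogues of bacterial S18, of which Mrps18a is part of the large subunit and Mrps18b and Mrps18c of the small one, and their calls were not the same. Mrps18a measured 7.48, 7.69 and 7.84 at 24 hours, 7.79, 7.72 and 7.75 at 7 days, and 8.27, 8.55 and 8.14 at 10 weeks, and was higher by 0.65 ± 0.11 in 10-week against 24-hour hearts (SE, limma, adjusted p = 0.000862). Mrps18b measured 7.87, 8.0 and 8.03, then 7.69, 7.80 and 7.57, then 8.01, 8.15 and 7.83 at the 3 ages in order. Its 7-day values lay below all others, and it was higher by 0.31 ± 0.09 in 10-week against 7-day hearts (SE, limma, adjusted p = 0.0222), which was lost without 7-day replicate 1 or 3 or 10-week replicate 1 or 2, as with 0.23 without 10-week replicate 2 (adjusted p = 0.0793). The 10-week minus 24-hour difference of Mrps18b was 0.03 ± 0.09 (SE, adjusted p = 0.805). Mrps18c, at 7.88, 7.93 and 8.16, 8.29, 8.09 and 8.12, and 8.27, 8.11 and 8.06 over the same ages, overlapped between all of them and was called in none of the comparisons.

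A few of these genes are known from human infants with cardiomyopathy, in whom MRPL3, MRPL44, MRPS14 or MRPS22 is mutated, and were set together after their values were seen. Mrpl3, a counterpart of bacterial L3, measured 8.18, 8.28 and 8.28 at 24 hours, 8.13, 8.13 and 8.09 at 7 days, and 8.62, 8.65 and 8.52 at 10 weeks, and was higher by 0.48 ± 0.06 in 10-week against 7-day hearts (SE, limma, adjusted p = 6.24e-05). Mrpl44, an added protein with a ribonuclease fold, measured 6.84, 6.99 and 7.11, then 7.05, 6.76 and 6.97, then 7.52, 7.5 and 7.05 at the 3 ages in order, and its 10-week replicate 3 lay among the younger hearts. It was higher by 0.38 ± 0.13 against 24 hours (SE, limma, adjusted p = 0.0408), a call lost on leaving out 24-hour replicate 1 or 2, 7-day replicate 3, or either of 10-week replicates 1 and 2 (0.30 to 0.38, adjusted p = 0.0594 to 0.143). Against 7 days it was higher by 0.43 ± 0.13 (adjusted p = 0.0253), lost on leaving out 7-day replicate 2 or 3, or 10-week replicate 1 or 2 (0.35 to 0.45, adjusted p = 0.0541 to 0.0969). Mrps14 was thus higher, Mrps22 lower against 7 days only, and Mrpl3 and Mrpl44 higher in adult hearts.

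The pattern of calls divided the 77 genes as follows. Both adult comparisons called 28 genes higher and 2 lower (Mrps5 and Mrps17). Against 7 days alone 4 were higher (Mrpl2, Mrpl45, Mrps9 and Mrps18b) and Mrps22 was lower, and against 24 hours alone 6 were higher (Mrpl10, Mrpl18, Mrpl33, Mrpl43, Mrps21 and Mrps36) and Mrps27 was lower. A call in 1 adult comparison and not in the other does not show that they differ, which was not tested. On leaving out Mrps36, 33 of 76 genes were higher and 3 lower in 10-week against 24-hour hearts.

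No comparison called 35 of the 77 genes. These were Mrpl1, Mrpl4, Mrpl9, Mrpl12, Mrpl13, Mrpl15, Mrpl16, Mrpl19, Mrpl20, Mrpl22, Mrpl23, Mrpl24, Mrpl27, Mrpl32, Mrpl34, Mrpl36, Mrpl38, Mrpl40, Mrpl46, Mrpl47, Mrpl48, Mrpl49, Mrpl52, Mrpl54 and Mrpl58 of the large subunit by name, and Mrps2, Mrps6, Mrps10, Mrps11, Mrps16, Mrps18c, Mrps26, Mrps28, Mrps30 and Mrps31. Their 10-week minus 24-hour differences ran from -0.22 in Mrpl52 to 0.31 in Mrps16, and their 7-day minus 24-hour differences from -0.39 in Mrps30 to 0.19 in Mrps26. Among them Mrpl58, which frees peptides from stalled ribosomes, measured 8.87, 8.89 and 9.11 at 24 hours, 8.97, 8.84 and 8.98 at 7 days, and 8.91, 8.93 and 8.69 at 10 weeks, and its ages overlapped. Its 10-week minus 24-hour difference was -0.12 ± 0.08 (SE, adjusted p = 0.305).

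Calls were made both among genes descended from a bacterial protein and among later additions. Of 48 genes with a bacterial counterpart 19 (39.6%) were higher and 2 (4.17%) lower in 10-week against 24-hour hearts. Of 29 mitochondrial additions 15 (51.7%) were higher and 1 (3.45%) lower. The median differences were 0.167 and 0.265. For all genes tested the shares were 19.5% higher and 20.6% lower, and the median was 0.038. Mrps36 is counted with the additions, and without it 14 of 28 were higher and 1 lower, with a median of 0.242. The difference between the classes was not tested.

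Arrays of a single age also differed in the mitochondrial ribosomal proteins as a body. The mean over the 77 genes was 7.75, 7.82 and 7.92 at 24 hours (replicates 1, 2 and 3), 7.89, 7.79 and 7.88 at 7 days, and 8.07, 8.11 and 7.90 at 10 weeks. The 10-week replicate 3 thus lay below 24-hour replicate 3, and the ages overlapped in this mean, while the mean over all genes stayed at 5.70 to 5.72. Within the 10-week hearts replicate 3 held the lowest value for 64 of the 77 genes (83.1%, against 32.2% of all genes). At 24 hours replicate 1 was lowest for 55 (71.4%, against 35.6%) and replicate 3 highest for 65 (84.4%, against 30.7%), and at 7 days replicate 2 was lowest for 57 (74%, against 38.2%). That 7-day array is also the one with the highest brown fat markers and the highest Alb and Scgb1a1, and 24-hour replicate 1 is the other array with Scgb1a1 above the rest. The part of these in the members' lower values was not tested. The genes thus did not vary independently between arrays.

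The calls were read against single arrays for this reason. Of the 37 calls in 10-week against 24-hour hearts, 26 were made whichever of the 9 arrays was left out, 24 of them higher together with the falls of Mrps5 and Mrps17. Against 7 days 23 of 35 held in this way, 22 higher and Mrps5 lower. Without 7-day replicates 2 and 3, both with raised brown fat markers, 10 of the 35 calls against 7 days were made, which compares a lone 7-day array. These were Mrpl2, Mrpl3, Mrpl28, Mrpl30, Mrpl37, Mrpl55, Mrps12, Mrps15, Mrps23 and Mrps25, all higher, and the median difference was then 0.162.

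Subunits of the respiratory chain shifted between arrays in a like way. The mean over 73 nuclear genes for these subunits was 10.54, 10.57 and 10.69 at 24 hours, 10.75, 10.63 and 10.75 at 7 days, and 10.95, 10.91 and 10.80 at 10 weeks. Here the 10-week arrays lay above all younger ones. The mean over 54 cytosolic ribosomal proteins was 10.13, 10.18 and 10.20 at 24 hours, 10.22, 10.11 and 10.14 at 7 days, and 10.12, 10.07 and 9.93 at 10 weeks. The lowest value of the 10-week arrays was on replicate 3 in all of these lists.

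**Figure D3:**
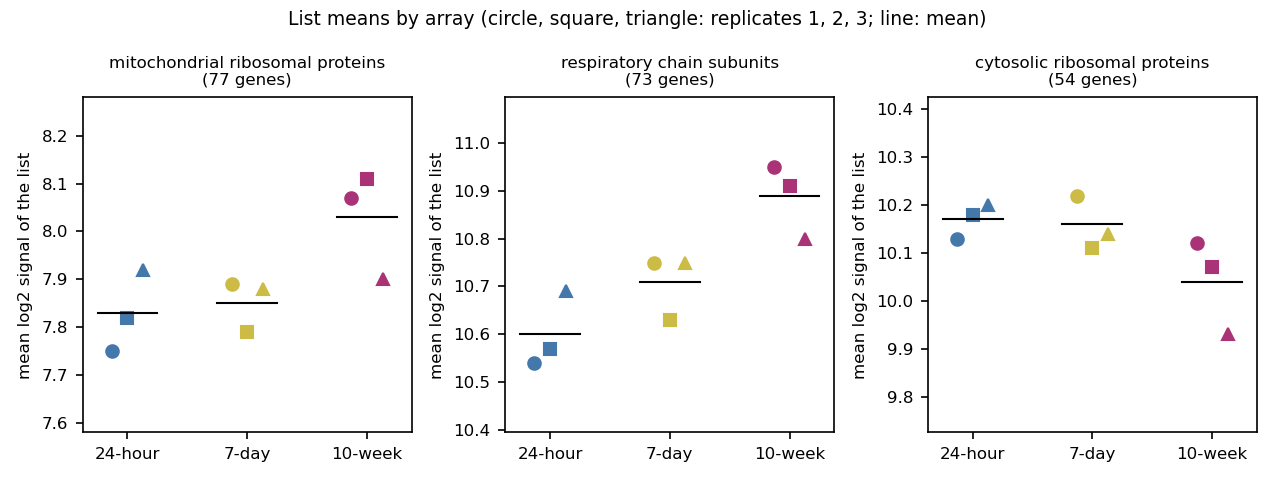
Mean log2 signal on each array of 77 mitochondrial ribosomal protein genes, 73 nuclear-encoded respiratory chain subunits and 54 cytosolic ribosomal proteins (circles, squares and triangles are replicates 1, 2 and 3, and lines the mean of each age). Axes do not start at 0 and span the same height in each panel. The 10-week replicate 3 lies lowest of its age in every panel, at 7.90 for the mitochondrial ribosomal proteins.

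Genes that moved more or less than the rest of the ribosome were sought by centring each array on the mean of the 77 genes, a setting chosen after seeing the data. In 10-week against 24-hour hearts 14 genes were then higher than the family mean and 15 lower. The 14 were Mrpl14, Mrpl17, Mrpl28, Mrpl30, Mrpl42, Mrpl51, Mrpl55, Mrps7, Mrps14, Mrps18a, Mrps21, Mrps23, Mrps24 and Mrps25. The 15 were Mrpl19, Mrpl27, Mrpl32, Mrpl40, Mrpl47, Mrpl52, Mrpl58, Mrps5, Mrps10, Mrps11, Mrps17, Mrps22, Mrps27, Mrps30 and Mrps31. Both groups hold genes of both subunits. By the same centring 37.7% of the members and 38.9% of all genes tested were called, so that with both directions together the members' share lay near that of all genes. The directions were not alike: 18.2% of the members were higher and 19.5% lower, against 8.57% and 30.3% of all genes. The near-even split follows from the centring: under it 15 genes count as lower, where only Mrps5, Mrps17 and Mrps27 were lower on the deposited scale.

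Other proteins of the mitochondrial ribosome and its assembly were read from lists of their own. Of 4 ribosomal proteins that go by other names, 3 were higher and 0 lower in 10-week against 24-hour hearts by limma, also at an unadjusted p under 0.05. The shares of all genes tested were 19.5% higher and 20.6% lower, and 24.4% and 23% at the unadjusted threshold. Ptcd3, a small subunit protein with RNA-binding repeats, was higher by 0.43 ± 0.06 and Chchd1 by 0.57 ± 0.14 (SE, limma, adjusted p = 0.000284 and 0.00656). Dap3, a GTP-binding protein of the small subunit, took another course, at 7.72, 7.85 and 7.86 at 24 hours, 7.41, 7.24 and 7.40 at 7 days, and 7.91, 7.93 and 7.77 at 10 weeks. Its 7-day hearts lay below both other ages, by -0.46 ± 0.07 as 7-day minus 24-hour, and 10-week minus 7-day was 0.52 ± 0.07 (SE, limma, adjusted p = 0.00258 and 0.000214).

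Of 26 factors that assemble the ribosome or modify its RNA, 10 (38.5%) were higher and 1 (3.85%) lower in 10-week against 24-hour hearts. Their median difference was 0.119. For all genes tested the shares were 19.5% and 20.6%, and the median was 0.038. Mtg2, a GTPase that acts late in assembly of the large subunit, measured 5.89, 5.86 and 5.88 at 24 hours, 6.05, 6.18 and 6.06 at 7 days, and 6.66, 6.92 and 6.61 at 10 weeks, and was higher by 0.85 ± 0.08 (SE, limma, adjusted p = 1.56e-05). In the first week 2 of the 26 were lower (7.69%, against 4.81% of all genes tested), Nsun4, an RNA methyltransferase, and C1qbp. Each differed by -0.45 as 7-day minus 24-hour (limma, adjusted p = 0.00627 and 0.00379). Of 16 translation factors 7 (43.8%) were higher and 2 (12.5%) lower in 10-week against 24-hour hearts. Gfm2, the factor that splits the ribosome after termination, was higher by 0.79 ± 0.06, and Oxa1l, which inserts new proteins into the inner membrane, was lower by -0.66 ± 0.06 (SE, limma, adjusted p = 1.85e-06 and 7.22e-06).

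Enzymes that take part in charging mitochondrial transfer RNAs were mixed. Of 19 such genes 6 (31.6%) were higher and 4 (21.1%) lower in 10-week against 24-hour hearts, against 19.5% and 20.6% of all genes tested. In the first week 5 (26.3%) were lower and 0 higher, against 4.81% and 5.27% of all genes tested. Of these calls that of Sars2 was lost without 24-hour replicate 2 or 3 or any 7-day array. That of Gatb was lost without replicate 2 or 3 of either age. In 10-week against 24-hour hearts Ears2, for glutamate, differed by -0.91 ± 0.09 and Cars2, for cysteine, by 0.86 ± 0.09 (SE, limma, adjusted p = 1.54e-05 and 3.18e-05). Of 16 genes of mitochondrial DNA replication and transcription 9 (56.2%) were higher and 0 lower by limma in 10-week against 24-hour hearts. At an unadjusted p under 0.05 these were 10 (62.5%) and 0, where 24.4% and 23% of all genes tested were higher and lower. Tfb2m, a partner of the mitochondrial RNA polymerase at promoters, was higher by 1.02 ± 0.07, and Mterf2 by 1.14 ± 0.11 (SE, limma, adjusted p = 7.12e-07 and 1.20e-05).

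Among cytosolic ribosomal proteins most calls were lower. Of 54 tested, 3 (5.56%) were higher and 19 (35.2%) lower in 10-week against 24-hour hearts, with a median difference of -0.143. The shares of all genes tested were 19.5% and 20.6%. A further 24 listed genes had no feature of their own. Of 20 genes for making cytosolic ribosomes 0 were higher and 12 (60%) lower by limma, among them Npm1, a nucleolar chaperone, by -0.80 ± 0.09 (SE, adjusted p = 3.62e-05). At an unadjusted p under 0.05 none was higher and 14 (70%) were lower, against 24.4% and 23% of all genes tested. Of the 73 respiratory chain genes 47 (64.4%) were higher and 2 (2.74%) lower, with a median of 0.246. They were led by Cox7a1, the muscle form of a cytochrome oxidase subunit, at 1.5 ± 0.09 (SE, limma, adjusted p = 3.47e-07). In the first week 10 (13.7%) of these 73 were higher and 2 (2.74%) lower, against 5.27% and 4.81% of all genes tested.

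**Figure D4:**
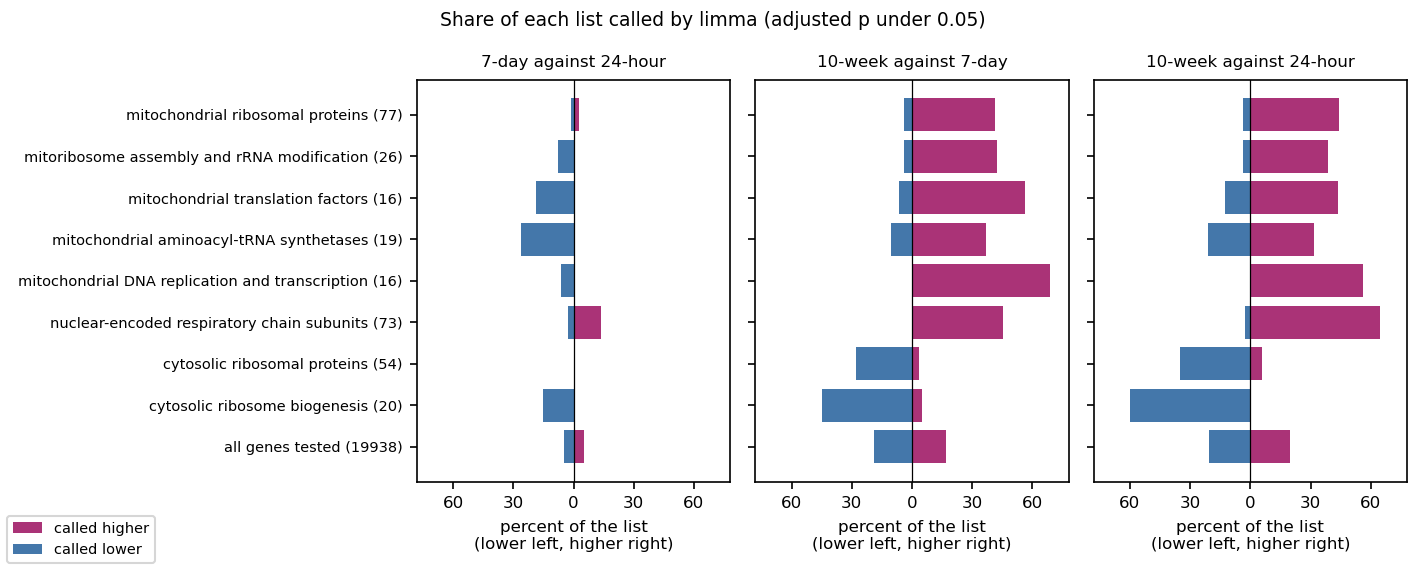
Percent of each gene list called higher (right of 0) and lower (left of 0) by limma in the 3 comparisons, with the number of genes tested in brackets and all genes in the bottom row. The mitochondrial ribosomal proteins were called higher at 44.2% in 10-week against 24-hour hearts, the cytosolic ribosomal proteins lower at 35.2%.

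Regulators known to act on nuclear genes for mitochondria did not move together. Of 14 listed, 5 (35.7%) were higher and 6 (42.9%) lower in 10-week against 24-hour hearts, against 19.5% and 20.6% of all genes tested. Myc, a growth regulator, differed by -1.25 ± 0.09, Esrrb, an oestrogen-related receptor, by 1.11 ± 0.11 and Ppara, a lipid-sensing receptor, by 0.93 ± 0.08 (SE, limma, adjusted p = 1.95e-06, 1.43e-05 and 5.65e-06). Factors whose motifs were searched below were added after their values were seen. Gabpb1, a subunit of the GABP factor, differed by -0.71 (limma, adjusted p = 2.18e-05), and its partner Gabpa by -0.16 (adjusted p = 0.0282). Nrf1 differed by -0.18 (adjusted p = 0.102) and Yy1 by -0.19 (adjusted p = 0.0497). The call of Gabpa was lost without 24-hour replicate 1 or 3 or 10-week replicate 1 or 2. That of Yy1 was lost without 8 of the 9 single arrays, all but 10-week replicate 1.

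The starts of these genes were read in RefSeq's mouse promoters (build GRCm38.p6), windows of 250 bases before to 50 bases after a start, found for 68 of the 77 genes in 74 windows. The members lie on 17 chromosomes. The sequences below, each 250 bases upstream of the start and written 5′ to 3′ in the direction of the gene, show motif matches and neighbours described in the next paragraphs. Capitals mark the NRF1 palindrome (GCGCATGC followed by GC) in Mrpl39, the ETS and GABP motif CCGGAAG in Mrps18a, Mrpl43 and Mrpl18, and the E-box CACGTG in Mrpl37, while Mrpl14, Mrpl57 and Mrps12 hold none of the motifs in the bases shown. Just after the start, beyond these bases, Mrpl57 and Mrps12 hold CCGGAAG, and Mrps18a and Mrpl37 hold the YY1 motif described below, while Mrpl14 holds none in its whole window.
Mrpl39 (chr16:84735245-84735494, minus strand): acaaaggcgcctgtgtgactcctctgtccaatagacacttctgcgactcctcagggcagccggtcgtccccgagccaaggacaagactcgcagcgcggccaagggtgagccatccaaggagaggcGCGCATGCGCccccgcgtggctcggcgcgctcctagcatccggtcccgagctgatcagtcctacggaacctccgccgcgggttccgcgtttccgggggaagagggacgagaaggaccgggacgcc
Mrps18a (chr17:46110754-46111003, plus strand): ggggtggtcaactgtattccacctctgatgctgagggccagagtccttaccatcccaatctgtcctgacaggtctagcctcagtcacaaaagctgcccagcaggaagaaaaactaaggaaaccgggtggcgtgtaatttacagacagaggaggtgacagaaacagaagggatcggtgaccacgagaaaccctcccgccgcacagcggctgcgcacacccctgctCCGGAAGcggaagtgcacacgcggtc
Mrpl43 (chr19:45006443-45006692, minus strand): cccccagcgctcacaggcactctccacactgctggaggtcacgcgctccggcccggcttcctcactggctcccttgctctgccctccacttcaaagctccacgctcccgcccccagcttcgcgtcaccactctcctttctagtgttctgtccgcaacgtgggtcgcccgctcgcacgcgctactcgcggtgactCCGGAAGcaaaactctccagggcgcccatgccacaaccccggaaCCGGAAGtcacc
Mrpl18 (chr17:12916092-12916341, minus strand): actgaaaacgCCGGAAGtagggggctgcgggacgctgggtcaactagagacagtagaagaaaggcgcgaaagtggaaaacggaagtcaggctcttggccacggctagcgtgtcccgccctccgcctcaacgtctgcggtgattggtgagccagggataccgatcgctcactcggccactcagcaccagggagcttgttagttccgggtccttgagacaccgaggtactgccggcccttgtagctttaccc
Mrpl37 (chr4:107066867-107067116, minus strand): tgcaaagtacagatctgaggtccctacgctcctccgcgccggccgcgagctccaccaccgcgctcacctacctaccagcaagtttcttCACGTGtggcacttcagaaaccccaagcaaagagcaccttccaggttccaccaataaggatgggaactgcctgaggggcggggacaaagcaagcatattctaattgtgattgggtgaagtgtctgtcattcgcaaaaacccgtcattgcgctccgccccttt
Mrpl14 (chr17:45686099-45686348, plus strand): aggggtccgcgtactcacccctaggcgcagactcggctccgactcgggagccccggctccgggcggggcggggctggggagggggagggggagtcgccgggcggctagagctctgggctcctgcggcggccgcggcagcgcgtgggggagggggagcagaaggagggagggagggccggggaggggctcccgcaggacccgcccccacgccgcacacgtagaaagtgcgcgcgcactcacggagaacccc
Mrpl57 (chr14:57825989-57826238, plus strand): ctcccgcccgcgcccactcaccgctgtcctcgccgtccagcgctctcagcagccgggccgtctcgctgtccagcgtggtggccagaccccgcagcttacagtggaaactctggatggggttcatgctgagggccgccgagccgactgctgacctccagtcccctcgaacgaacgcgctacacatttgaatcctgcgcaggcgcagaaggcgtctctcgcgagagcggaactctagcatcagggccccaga
Mrps12 (chr7:28741822-28742071, minus strand): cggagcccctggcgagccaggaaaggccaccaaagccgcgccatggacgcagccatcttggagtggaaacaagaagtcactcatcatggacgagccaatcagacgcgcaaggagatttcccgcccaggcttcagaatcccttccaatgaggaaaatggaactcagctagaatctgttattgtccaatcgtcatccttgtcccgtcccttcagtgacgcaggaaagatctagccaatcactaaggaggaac

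Exact letters of motifs for factors known to act on mitochondrial genes were counted on both strands. CCGGAAG was in 33.8% of the 74 windows (25 genes) and in 8.86% of all 32851 windows of the table. The palindrome that NRF1 binds, GCGCATGC followed by GC, was in 4.05% (Mrpl9, Mrpl32 and Mrpl39) and in 0.971% of all, and its core GCGCATGC, which the palindrome contains, in 10.8% (8 genes) and 2.71%. The YY1 motif, ATGGCGGC preceded by AAG, was in 6.76% (Mrpl35, Mrpl37, Mrps11, Mrps18a and Mrps27) and 0.633%, and its core ATGGCGGC, contained in it, in 14.9% (11 genes) and 2.24%. TCAAGGTCA, the motif of oestrogen-related receptors, was in 0 of the 74 windows and in 0.423% of all, and CACGTG in 9.46% and 7.15%. Of the windows with CACGTG 3 are overlapping windows of Mrpl2 that hold the same site. Counted by gene, CACGTG was in 5 of the 68 genes (7.35%), against 8.09% of all genes of the table. The median GC content was 58.5% in the windows of these genes and 52.7% in all windows, a base composition in which GC-rich letters occur more often. Of the 25 genes with CCGGAAG 13 were called higher in 10-week against 24-hour hearts, as were 4 of 8 with GCGCATGC and 4 of 11 with ATGGCGGC, where 34 of all 77 were. The 77 include genes without a window, in which no motif could be found, and the calls among the 68 were not counted apart. A match is a description of letters and not a site of binding.

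Many of these genes start back to back with another gene. A gene on the opposite strand started within 1000 bases upstream for 26 of the 68 genes (38.2%), against 3311 of 27025 genes in the whole table (12.3%). Of 24 members whose neighbour was tested, 12 were called higher in 10-week against 24-hour hearts. The neighbours of these 12 were higher in 3 cases, lower in 4 and not called in 5. Of all 24 neighbours 4 were higher, 7 lower and 13 not called, where 19.5% and 20.6% of all genes tested were higher and lower. Pairs of the same and of opposite direction thus both occurred. Whether they differ from pairs of unrelated genes was not tested.

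Neighbours of the cell cycle parted furthest. Mrpl51 starts 614 bases from Ncapd2, a subunit of condensin, which packs mitotic chromosomes. Ncapd2 measured 7.15, 7.17 and 7.46 at 24 hours, 6.89, 6.97 and 7.06 at 7 days, and 5.6, 5.83 and 5.68 at 10 weeks, and its adult values lay far below the others. The 10-week minus 24-hour difference was -1.56 ± 0.10 for Ncapd2 and 0.47 ± 0.05 for Mrpl51 (SE, limma, adjusted p = 4.95e-07 and 5.15e-05). Mrpl57, a small protein added to the large subunit, starts 76 bases from Ska3, whose protein ties spindle microtubules to kinetochores. Mrpl57 measured 6.40, 6.47 and 6.65, then 6.65, 6.48 and 6.69, then 6.97, 7.10 and 6.68 at the 3 ages in order, and Ska3 5.58, 5.53 and 5.96, then 5.29, 5.46 and 5.32, then 3.87, 4.37 and 4.32. Their 10-week minus 24-hour differences were 0.41 ± 0.11 and -1.5 ± 0.14 (SE, limma, adjusted p = 0.0127 and 1.31e-05). The call of Mrpl57 was lost without 24-hour replicate 1 (0.35, adjusted p = 0.0555) or 10-week replicate 2 (0.32, adjusted p = 0.0504).

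In the pair of Mrps12 and Sars2 both proteins serve mitochondrial translation, as the small subunit protein at the decoding site and as the enzyme that charges the transfer RNA for serine. Their starts lie 147 bases apart. Mrps12 measured 6.86, 6.78 and 6.91 at 24 hours, 6.93, 6.93 and 7.10 at 7 days, and 7.39, 7.22 and 7.27 at 10 weeks, and Sars2 6.25, 6.28 and 6.42, then 5.96, 5.90 and 6.02, then 6.01, 6.00 and 5.76. Mrps12 was thus highest and Sars2 lower than at 24 hours in adult hearts, by 0.44 ± 0.07 and -0.39 ± 0.08 (SE, limma, adjusted p = 0.000531 and 0.00332). Mrpl18 and Tcp1, a subunit of a cytosolic chaperonin, start 238 bases apart and differed by 0.30 ± 0.09 and -0.54 ± 0.05 (SE, limma, adjusted p = 0.0295 and 4.70e-06). The call of Mrpl18 was lost without 24-hour replicate 1 or 2 or 10-week replicate 1 or 2 (0.23 to 0.28, adjusted p = 0.0866 to 0.118), and on array-median centring (0.27, adjusted p = 0.0557).

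Both genes were higher in 3 pairs. Mrpl14 starts 131 bases from Tmem63b, a membrane channel gene that measured 8.64, 8.64 and 8.69 at 24 hours, 8.30, 8.29 and 8.39 at 7 days, and 8.85, 8.92 and 8.93 at 10 weeks. Tmem63b was lower at 7 days and highest at 10 weeks, and was higher by 0.24 ± 0.05 in 10-week against 24-hour hearts, where Mrpl14 was higher by 0.95 (SE, limma, adjusted p = 0.00317 for Tmem63b). Mrpl37, an addition of the large subunit, starts 128 bases from Cyb5rl, and they were higher by 0.36 ± 0.07 and 0.64 ± 0.07 (SE, limma, adjusted p = 0.00231 and 2.18e-05). Mrpl43 starts 116 bases from Twnk, the helicase of mitochondrial DNA, and they were higher by 0.29 ± 0.09 and 0.42 ± 0.10 (SE, limma, adjusted p = 0.0275 and 0.00743). The call of Mrpl43 was lost without 24-hour replicate 1 or 10-week replicate 1 or 2 (0.21 to 0.25, adjusted p = 0.0883 to 0.108). Mrpl30, with the second largest rise, starts 66 bases from Mitd1, which differed by 0.21 ± 0.10 and did not pass (SE, adjusted p = 0.108). Mrpl46 and Mrps11, 42 bases apart, are each other's neighbour and neither was called.

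**Figure D5:**
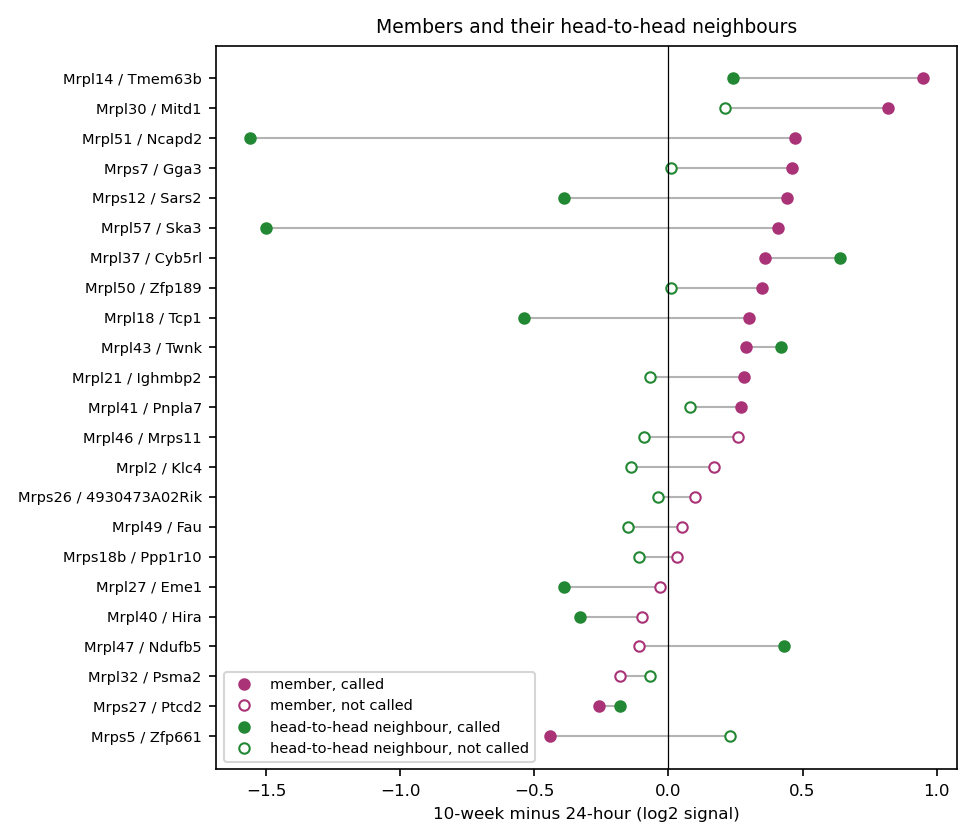
Differences in log2 signal, as 10-week minus 24-hour, of mitochondrial ribosomal protein genes (purple) and of the gene that starts back to back with each (green), joined by a line, with filled points for called genes. Ncapd2 at -1.56 and Ska3 at -1.5 lie furthest from their neighbours Mrpl51 and Mrpl57, which were higher.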

How the data were processed

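The authors deposited log2 intensities of 35556 features on 9 arrays. MAS5 5.0 is named, per the submitters' processing notes. How probes were summarised and arrays normalized is not given in the sources used here. Values run from 1.853 to 13.583, array medians lie within 0.05 of each other, and the values were used as deposited. Features with 1 platform symbol (21789, of which 21698 matched RefSeq by Entrez id) were kept, and the feature with the highest mean was taken for each gene, which left 19938 genes. Of the 77 members 8 had a second feature. The feature that Mrpl53 shares with another gene was not used.

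All 9 arrays entered 1 limma fit (version 3.58.1, R 4.3.3) with a mean for each age, 6 residual degrees of freedom and an intensity trend in eBayes, and p-values were adjusted by the Benjamini-Hochberg method over all genes. The fit was tested on simulated data. Figures used matplotlib 3.10.9, and tables pandas 2.3.3 and numpy 2.4.6 under Python 3.11.15. Arrays have no depth; their number limits the precision. A total of 20 alternatives were planned and 1 was added after seeing the data. Named genes are the largest rises and falls per comparison (up to 6 each), members called in both steps or in no comparison, those of the highest and lowest signal, the S18 paralogues, 3 leading genes per other list and back-to-back pairs; other named genes are marked in the text. The members and lists were chosen with earlier results of these data known.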

Additional observations from a re-analysis of the deposited data

How the results depend on the processing

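The 10-week counts were the steadiest. Against 24-hour hearts the 37 members called moved between 29 and 46 over the alternatives that kept all 9 arrays, and between 28 and 44 without single arrays. Against 7-day hearts the 35 called moved between 25 and 38 without single arrays, but were 10 without 7-day replicates 2 and 3 and 20 with each array centred on the mean of the members. That centring, added after seeing the data, took the median difference to 0.023 against 7 days and -0.009 against 24 hours, which follows from its construction, and turned Mrpl10 to -0.01 in 10-week against 24-hour hearts. Its calls split into 14 higher and 15 lower against 24 hours, where the main fit gave 34 and 3. Against 7 days they split into 9 and 11, where the main fit gave 32 and 3. The 3 calls of 7-day against 24-hour hearts were the least steady: they were 5 with only the 6 arrays compared, 10 with array weights, 1 centred on the member mean, 0 without 7-day replicates 2 and 3 together, and 0 to 5 without single arrays (0 without 24-hour replicate 1 or 2 or 7-day replicate 1 or 3, and 5 without 10-week replicate 3). Centred on array medians they split into 1 higher and 2 lower, against 2 and 1 on the deposited scale. The causes of these moves were not tested.

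The labels do not say whether replicate numbers pair the samples. Deviations from the age means correlated at -0.174 to 0.133 for same-numbered arrays of different ages, and at -0.216 to 0.25 for differently numbered ones. As the 3 deviations of an age sum to 0 and thus depend on each other, this cannot exclude a pairing. With the replicate block 3 members were called in 7-day against 24-hour hearts, 1 higher and 2 lower against 2 and 1 without it: Mrpl51 was lost (adjusted p = 0.052) and Mrps30 was called lower (-0.39). In 10-week hearts 29 were called against 7 days, 26 higher and 3 lower, and 36 against 24 hours, 33 and 3.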

Other observations

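For 8 of the genes the array holds a second feature, which the comparisons did not use. For Mrps33 and Mrps36 both features gave like differences in 10-week against 24-hour hearts (0.39 and 0.42, and 0.32 and 0.31, each with the used feature first). For Mrpl51 the second feature gave 0.68 where the used one gave 0.47. For Mrpl47 they differed in sign, at -0.11 for the used feature and 0.23 for the second, and for Mrpl27 they gave -0.17 and 0.01 in 10-week against 7-day hearts. Mrpl41 lost both adult calls with its second feature in place of the first. Against 24 hours the used feature gave 0.27 and the second 0.17 (limma, adjusted p = 0.184 for the second). Against 7 days they gave 0.22 and 0.27 (limma, adjusted p = 0.0528 for the second).

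The median standard deviation among the 3 arrays of an age was 0.093, 0.088 and 0.121 for the 77 genes at 24 hours, 7 days and 10 weeks, and 0.068, 0.070 and 0.1 over all genes. The 4 members with the dimmest features were Mrpl22, Mrpl17, Mrps25 and Mrps26, and the 4 with the brightest Mrps15, Mrps21, Mrpl18 and Mrpl30, which says nothing of their relative abundance.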
